A study of Mus musculus with 8 samples.

Results

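The genes described here carry out MHC class II antigen presentation. They were taken from a list of names and not by a cutoff on measured values. The list was chosen with earlier results of these data known, so the counts below are not those of a set chosen blind. The list held 10 genes: the class II chains H2-Aa, H2-Ab1 and H2-Eb1, the peptide loading factors H2-DMa and H2-DMb1, the invariant chain Cd74, the transactivator Ciita, the costimulatory molecule Cd86, the receptor Flt3 and the protease Ctss. Of these, 9 had a probe set naming no other gene, among 19938 genes with such a probe set. H2-DMb1 is named only by a probe set that also names H2-DMb2, so no value is given for it.

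Total liver RNA of 8 mice was hybridised to Affymetrix Mouse Gene 1.0 ST arrays, 1 array per mouse. All were female C57B1/6J mice, ovariectomized (OVX) at 7 weeks of age and put on their diets 1 week later for 3 months. The group fed with HFD+WBM received a high fat diet (HFD) with powder of the white button mushroom (WBM, Agaricus bisporus) in it (n = 4), and the HFD group received the high fat diet alone (n = 4). Loss of the ovaries and the fat-rich diet were thus shared by every mouse here, and the comparison addresses the diet with the powder, which by its stated composition also held less corn starch. Both groups were pair-fed.

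MHC class II molecules are pairs of an alpha and a beta chain that hold peptides from engulfed material at the cell surface, where CD4+ T cells read them. The invariant chain blocks the groove of newly made pairs until proteases of the endosome, cathepsin S foremost in professional antigen-presenting cells, trim it down to a short fragment, and H2-DM then exchanges that fragment for peptide. In the liver the pathway is known mainly from Kupffer cells, dendritic cells and B cells, with sinusoidal endothelial cells as further presenting cells, while hepatocytes express little of it at rest. Genes of the pathway are switched on together through an X box and a Y box in their promoters, on which Ciita acts without touching DNA itself.

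The promoters of class II family genes on chromosome 17 are shown because the X and Y boxes are the control letters by which the family is known. The 4 genes printed were picked with their diet values known: H2-Aa, H2-Eb1 and H2-Eb2 were lower in HFD+WBM livers and H2-Ob was not. RefSeq (GRCm38.p6) gave a promoter window to 6 of the 10 listed genes, and the 4 stretches here run from 150 to 21 bases before the start of the gene, 5′ to 3′ on the strand of the gene. H2-Aa lies on the minus strand (chr17:34287844-34287973), and H2-Eb1 (chr17:34305717-34305846), H2-Eb2 (chr17:34325525-34325654) and H2-Ob (chr17:34238755-34238884) lie on the plus strand. Capitals mark GATTGG, the core of the Y box (read as CCAATC where it lies on the other strand), ACNGATG, part of the X box, and TGACGTCA, the cyclic AMP response element.
H2-Aa: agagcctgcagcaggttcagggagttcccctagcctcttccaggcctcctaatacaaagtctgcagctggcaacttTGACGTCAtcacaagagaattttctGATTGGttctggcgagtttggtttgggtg
H2-Eb1: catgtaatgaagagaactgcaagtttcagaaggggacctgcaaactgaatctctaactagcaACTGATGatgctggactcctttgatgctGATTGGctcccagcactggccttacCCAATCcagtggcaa
H2-Eb2: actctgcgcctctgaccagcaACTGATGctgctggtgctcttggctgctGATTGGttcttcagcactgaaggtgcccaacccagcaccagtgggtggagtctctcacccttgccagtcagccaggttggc
H2-Ob: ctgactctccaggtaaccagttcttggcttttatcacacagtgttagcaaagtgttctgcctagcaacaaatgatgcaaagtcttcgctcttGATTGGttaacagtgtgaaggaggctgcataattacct

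In H2-Eb1 the X box letters began 88 bases and the Y box core 60 bases before the start. H2-Eb2, a neighbouring beta chain gene, had the same order of letters at 129 and 101 bases. H2-Aa had the Y box core at 49 bases before the start, with the cyclic AMP response element upstream of it at 74 bases. Its exact match to the X box letters lay at 232 bases on the reverse strand, and that match does not show where its X box lies. H2-Ob had the Y box core at 58 bases with no exact match to the X box letters. Upstream of that core H2-Ob reads acaaatg, which resembles ACNGATG but is not counted. H2-Oa, not printed here, had the X box letters at 137 bases and the Y box core at 44 bases. It was not lower in HFD+WBM livers either (log2 fold change 0.22). Only exact letters were searched, so the lack of a match does not show that an X box is missing. The 3 motifs were spelled after these promoters had been read. Over both strands of the 250 bases before the start, the Y box core was found in 14.6% of 32851 promoter windows, the X box letters in 8.31% and the cyclic AMP response element in 1.55%. The X box letters with the Y box core 20 to 35 bases downstream on the same strand were found in 17 windows (0.0517%) of 15 genes, and 4 of those 15 were class II genes (H2-DMb1, H2-DMb2, H2-Eb1 and H2-Eb2). Of the listed genes outside the class II chains and H2-DM that had a window, Ctss had the X box letters at 206 bases and Flt3 had none of the 3 motifs. A match describes the letters, and it was tested neither as a binding site nor against the differences between the diets.

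**Figure D1:**
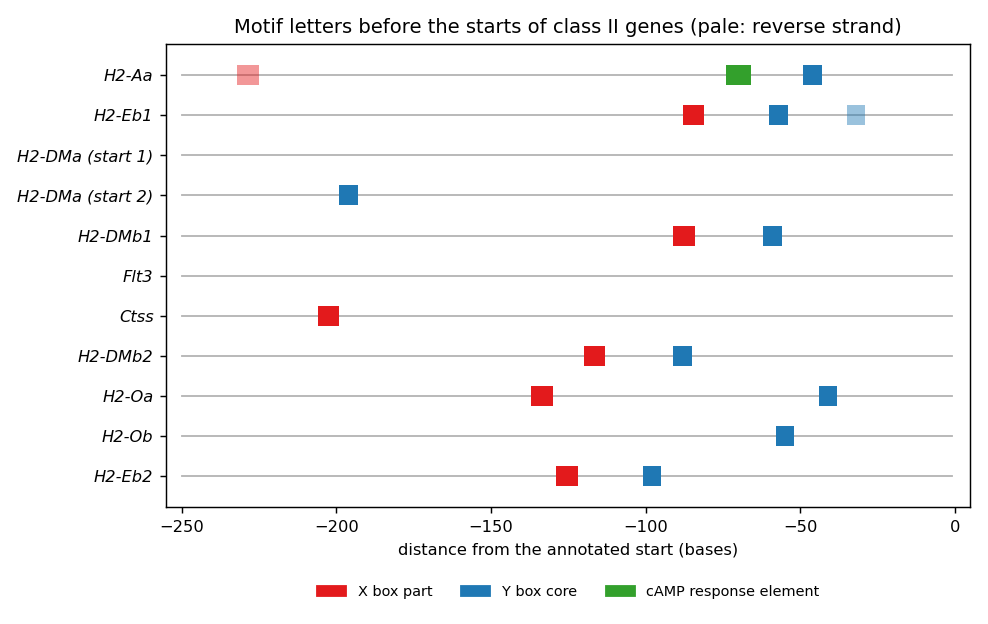
Distance from the start of the gene in bases (x axis) of the 3 motifs in the promoter windows of class II genes, Flt3 and Ctss (rows), with the X box letters in red, the Y box core in blue, the cyclic AMP response element in green and matches on the reverse strand pale. H2-Eb1, H2-Eb2, H2-DMb1 and H2-DMb2 have the X box letters 20 to 35 bases upstream of the Y box core, and H2-Aa has the Y box core with the cyclic AMP response element.

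Medians of the log2 values lay between 7.11 and 7.19 in HFD+WBM livers and between 7.04 and 7.22 in HFD livers, and pairs of arrays correlated at 0.920 to 0.973 across genes. HFD replicate 3 stood apart from the other 7 arrays (SD of its differences from them 0.678, against 0.384 to 0.499 for the others). The 0.499 was that of HFD+WBM replicate 3, the lowest mouse for the class II chains and Cd74. Values without HFD replicate 3 are given for the members whose fold it moves most. An array reads RNA of the whole liver, so that fewer cells of a type and less RNA per cell cannot be told apart in any value below.

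The class II chains and cathepsin S were lower in HFD+WBM livers than in HFD livers at an unadjusted p under 0.05. H2-Aa, H2-Ab1, H2-Eb1, Ctss and Flt3 were lower by 1.61-fold to 1.94-fold, while Cd74, H2-DMa, Cd86 and Ciita did not pass. Thus 5 of the 9 measured members were lower and 0 were higher, against 6.9% of all 19938 genes lower and 4.85% higher at the same threshold (limma). The members' median log2 fold change was -0.74, against 0.01 over all genes tested. At the 2-fold change required by the study's thresholds 0 members passed (0.762% of all genes did), and at an adjusted p under 0.05 limma called 0 members and 0% of all genes. Every HFD+WBM liver was below every HFD liver for 2 members, Ctss and Flt3, against 5.02% of all genes. Without HFD replicate 3 the count of lower members was also 5. Without any 1 of HFD+WBM replicate 3, HFD+WBM replicate 4, HFD replicate 1 or HFD replicate 4 it was 3, since H2-Ab1 and H2-Eb1 no longer passed.

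**Figure D2:**
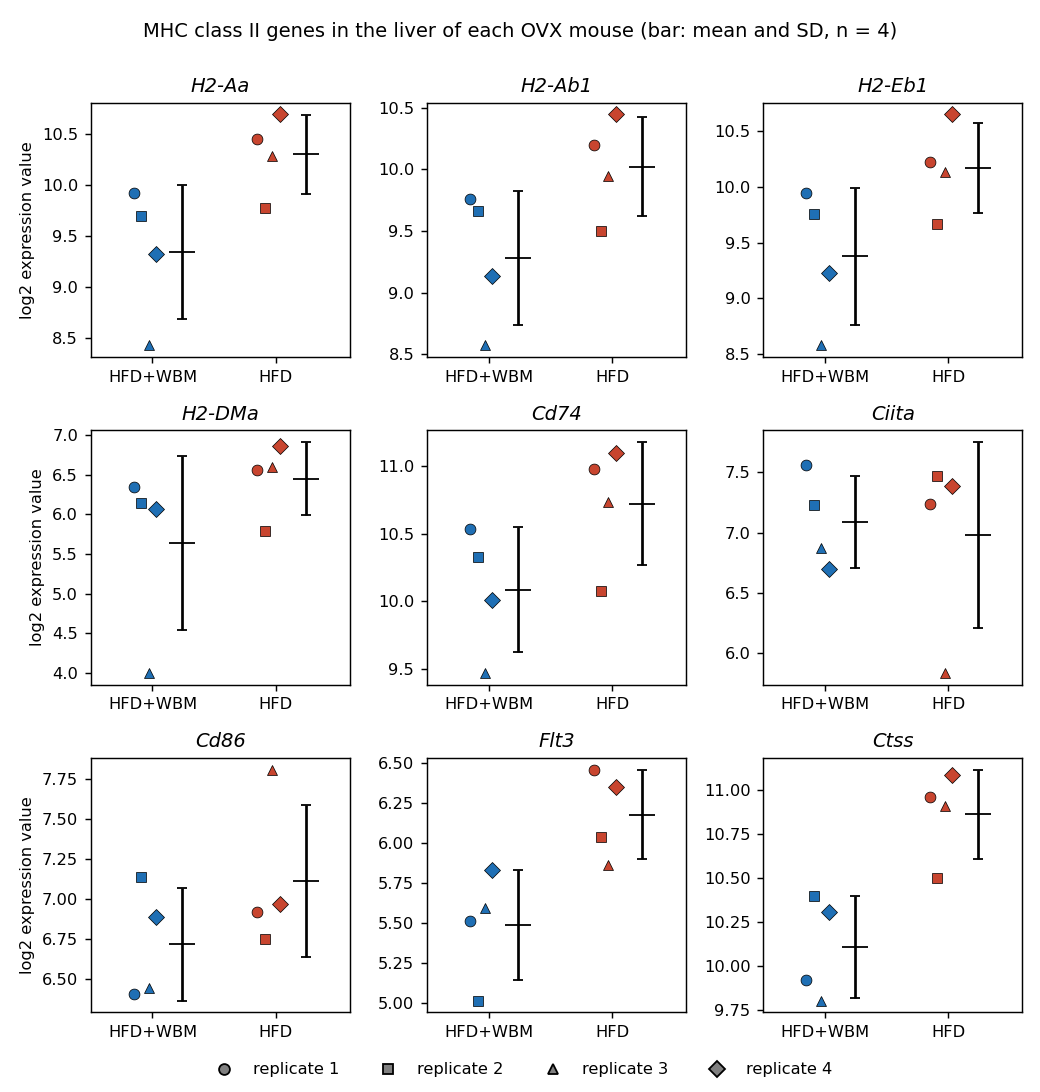
Deposited log2 value (y axis) of each of the 9 measured members, 1 panel per gene, in every mouse (points) with the group mean and SD (bar and whisker), n = 4 HFD+WBM livers (left) and n = 4 HFD livers (right). The 2 groups are apart for Ctss and Flt3 and overlap for the other 7 genes.

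H2-Aa encodes the alpha chain of the I-A molecule, the main class II molecule of C57BL/6 mice. Its log2 values were 9.93, 9.70, 8.43 and 9.33 in HFD+WBM replicates 1 to 4, against 10.46, 9.77, 10.29 and 10.70 in HFD replicates 1 to 4. HFD+WBM replicate 3 was the lowest of the 8 mice, and the groups overlapped only through HFD+WBM replicate 1 and HFD replicate 2. It averaged 9.35 ± 0.66 in HFD+WBM livers and 10.30 ± 0.39 in HFD livers (SD, n = 4 each). The log2 fold change was -0.96 (SE 0.33, 95% CI -1.69 to -0.22, 1.94-fold lower), with p = 0.016 before and 0.38 after adjustment in limma and p = 0.057 in an exact two-sided permutation test of the 4 against 4 mice. The smallest p that the 70 divisions of the mice allow is 0.029.

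H2-Ab1, the beta chain that pairs with H2-Aa, read 9.75, 9.66, 8.57 and 9.13 in HFD+WBM livers, against 10.19, 9.50, 9.95 and 10.44 in HFD livers. HFD replicate 2 lay below 2 of the HFD+WBM livers, so that the groups overlapped. H2-Ab1 differed by a log2 fold change of -0.74 (SE 0.30, 95% CI -1.40 to -0.08, 1.67-fold lower, limma p = 0.032, adjusted p = 0.40, exact permutation p = 0.086).

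H2-Eb1, the beta chain of the I-E molecule, read 9.94, 9.75, 8.57 and 9.23 in HFD+WBM livers, against 10.23, 9.67, 10.13 and 10.65 in HFD livers. The order of the mice was close to that of H2-Ab1, with HFD+WBM replicate 3 lowest and HFD replicate 4 highest. H2-Eb1 differed by a log2 fold change of -0.80 (SE 0.32, 95% CI -1.51 to -0.09, 1.74-fold lower, limma p = 0.032, adjusted p = 0.40, exact permutation p = 0.086). Without HFD+WBM replicate 3 the H2-Eb1 difference was -0.53. Its alpha partner H2-Ea is known not to be made in C57BL/6 mice because of a deletion in its promoter. The mean of H2-Ea lay at the 22.1 percentile of all genes, at 6.31 ± 0.24 in HFD+WBM livers and 5.66 ± 0.80 in HFD livers (SD, n = 4 each, exact permutation p = 0.11), with HFD replicate 3 lowest at 4.55.

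Cd74, the invariant chain that escorts class II pairs to the endosome, read 10.54, 10.33, 9.47 and 10.01 in HFD+WBM livers, against 10.98, 10.08, 10.74 and 11.10 in HFD livers. Again HFD+WBM replicate 3 was lowest, HFD replicate 4 was highest, and HFD replicate 2 lay below 2 HFD+WBM livers. Between the diets Cd74 differed by a log2 fold change of -0.64 (SE 0.29, 1.55-fold, limma p = 0.051, adjusted p = 0.43, exact permutation p = 0.11), which did not pass the threshold.

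The 3 chains and Cd74 moved as a unit from mouse to mouse. After each gene was centred on its own mean over the 8 mice, the 4 genes lay within 0.07 to 0.46 (log2) of one another in every mouse. Their mean deviation was 0.13, -0.05, -1.15 and -0.49 in HFD+WBM replicates 1 to 4, against 0.55, -0.16, 0.36 and 0.81 in HFD replicates 1 to 4. HFD+WBM replicates 1 and 2 thus lay inside the range of the HFD livers and HFD+WBM replicates 3 and 4 below it. The 4 genes share tissue, library and array in each mouse, so their likeness adds no replicates.

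**Figure D3:**
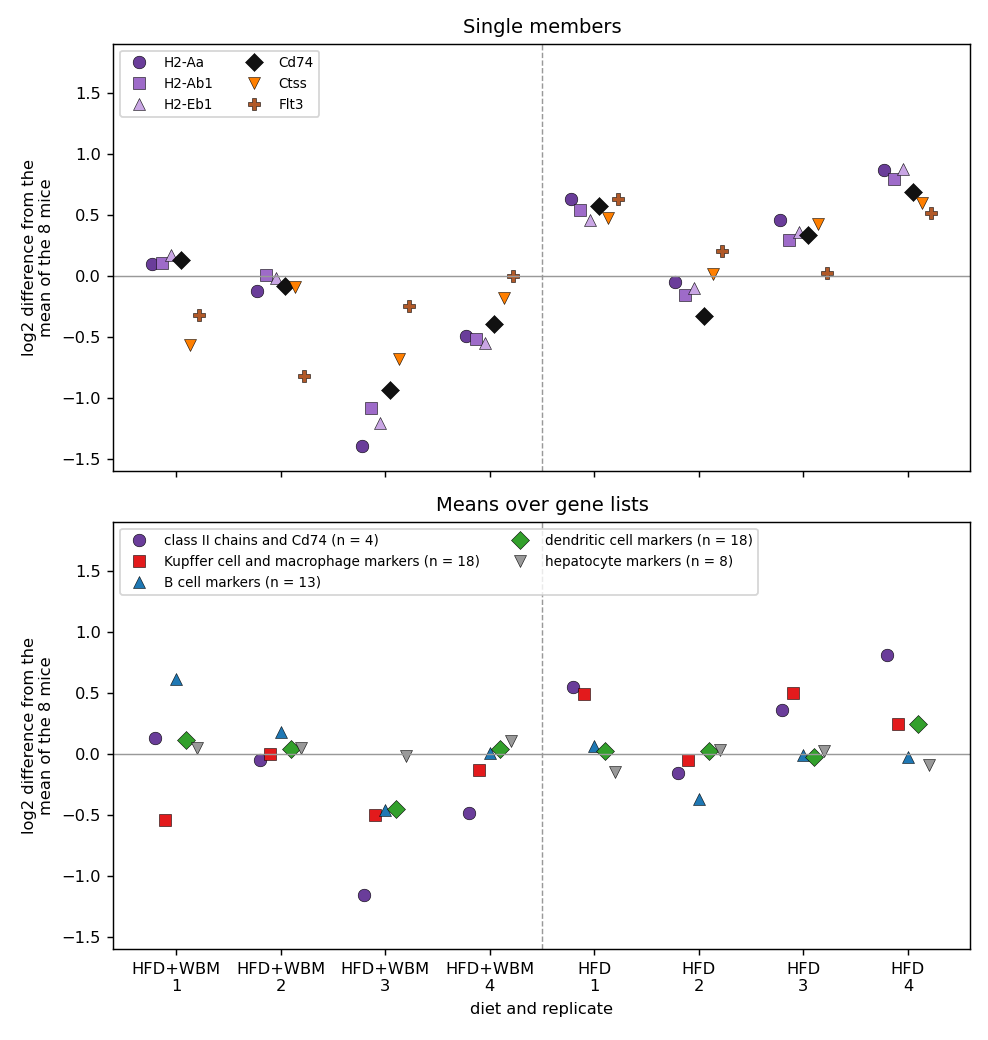
Difference of each log2 value from the gene's own mean over the 8 mice (y axis) by diet and replicate (x axis), for 6 single members (upper panel) and as means over gene lists (lower panel), with HFD+WBM livers left of the dashed line and HFD livers right of it. The chains and Cd74 are close together in every mouse and lowest in HFD+WBM replicate 3, whereas Ctss lies furthest below 0 in HFD+WBM replicates 1 and 3.

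Ctss encodes cathepsin S, which makes the late cuts in the invariant chain and is abundant in macrophages, B cells and dendritic cells. It read 9.92, 10.40, 9.80 and 10.31 in HFD+WBM livers, against 10.96, 10.50, 10.91 and 11.08 in HFD livers. All 4 HFD+WBM livers were below all 4 HFD livers, with HFD+WBM replicate 2 and HFD replicate 2 nearest to each other. It averaged 10.11 ± 0.29 in HFD+WBM livers and 10.86 ± 0.25 in HFD livers (SD, n = 4 each). The log2 fold change of Ctss was -0.76 (SE 0.20, 95% CI -1.19 to -0.32, 1.69-fold lower, limma p = 0.0034, adjusted p = 0.37, exact permutation p = 0.029). Its limma p was the smallest of the 9 members. Among the 8 mice Ctss was low in HFD+WBM replicate 1, at -0.57 from its own mean, where the chains and Cd74 were at 0.13.

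Flt3 encodes the receptor through which FLT3 ligand drives the growth of dendritic cell precursors, and it is no part of the presentation machinery itself. It read 5.51, 5.01, 5.59 and 5.83 in HFD+WBM livers, against 6.46, 6.04, 5.86 and 6.35 in HFD livers. The groups did not overlap, but HFD+WBM replicate 4 and HFD replicate 3 lay next to each other. The log2 fold change was -0.69 (SE 0.21, 95% CI -1.17 to -0.21, 1.61-fold lower, limma p = 0.0096, adjusted p = 0.37, exact permutation p = 0.029). Its mean lay at the 19.1 percentile of all genes, and no detection call was used here, so that background may make up part of the value. Without HFD replicate 3 the log2 fold change was -0.80.

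H2-DMa, the alpha chain of the peptide exchange factor, read 6.34, 6.15, 4.00 and 6.07 in HFD+WBM livers, against 6.55, 5.79, 6.59 and 6.86 in HFD livers. HFD+WBM replicate 3 lay far below the rest, and the other HFD+WBM livers lay within the range of the HFD livers. The means were 5.64 ± 1.10 in HFD+WBM livers and 6.45 ± 0.46 in HFD livers (SD, n = 4 each, limma p = 0.13, exact permutation p = 0.23). The log2 fold change was -0.81, and without HFD+WBM replicate 3 it was -0.26.

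Ciita, the master switch of class II transcription, read 7.56, 7.23, 6.87 and 6.70 in HFD+WBM livers, against 7.24, 7.47, 5.84 and 7.38 in HFD livers. The low value belonged to HFD replicate 3, the array that stood apart. For Ciita the log2 fold change was 0.11 (SE 0.36, 95% CI -0.71 to 0.92, limma p = 0.78, exact permutation p = 0.86). The sign of the difference turned when either HFD replicate 3 (-0.27) or HFD+WBM replicate 1 (-0.05) was left out.

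Cd86, a costimulatory ligand of CD28 on antigen-presenting cells, read 6.41, 7.13, 6.44 and 6.89 in HFD+WBM livers, against 6.92, 6.75, 7.81 and 6.97 in HFD livers. HFD replicate 3 was highest and the remaining mice were intermixed. For Cd86 the log2 fold change was -0.39 (SE 0.26, 95% CI -0.99 to 0.20, limma p = 0.17, exact permutation p = 0.23), and without HFD replicate 3 it was -0.16.

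The other measured genes of the class II family did not share 1 direction. Of the 4, 1 was lower and 0 were higher, with a median log2 fold change of 0.40. H2-Eb2, the second beta chain gene of the E region, was the one that was lower (7.11, 6.47, 5.83 and 6.34 in HFD+WBM livers, against 7.11, 6.99, 6.99 and 7.37 in HFD livers, -0.68, exact permutation p = 0.086). H2-Ob and H2-Oa encode H2-O, an inhibitor of H2-DM known mainly from B cells, and their log2 fold changes were 0.59 (exact permutation p = 0.11) and 0.22 (p = 0.51). As for Ciita, HFD replicate 3 held the lowest value of H2-Oa (6.08), of H2-Ob (4.99) and of H2-Ea.

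Among the proteases and the thiol reductase of the class II compartment, 4 of 10 were lower and 0 higher, with all 10 log2 fold changes below 0 and a median of -0.31. Ifi30, the thiol reductase GILT that opens disulphide bonds of antigens, differed by -0.54. Lgmn, the asparaginyl endopeptidase, differed by -0.50, and Ctsd, an aspartic protease of lysosomes, by -0.35. Cst3 (-0.32) encodes cystatin C, an inhibitor of cysteine cathepsins and not a protease. Ctsl, cathepsin L, which takes over the trimming of the invariant chain in thymic epithelium, differed by -0.30 and did not pass (exact permutation p = 0.11). Many of these enzymes are also general lysosomal enzymes of macrophages and other cells.

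Of the genes that transcribe class II, 1 of 13 was lower and 0 were higher, against 6.9% and 4.85% of all genes, with a median of 0.02. Irf8, a transcription factor of monocytes, dendritic cells and B cells, was the one that was lower, at 7.04, 6.63, 5.77 and 6.24 in HFD+WBM livers, against 6.91, 6.75, 7.14 and 7.30 in HFD livers (-0.61, limma p = 0.047, exact permutation p = 0.11). Rfx5, a DNA-binding subunit of the factor that holds the X box, differed by -0.39 (exact permutation p = 0.23), and Irf1, which acts on an interferon-driven promoter of Ciita, by -0.45 (p = 0.11). Neither passed the threshold.

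Of the genes of class II traffic and turnover, 4 of 10 were lower and 0 higher, with a median of -0.25. Cd9, a tetraspanin of the cell surface, read 7.98, 7.99, 7.69 and 7.52 in HFD+WBM livers, against 8.36, 8.21, 8.63 and 8.80 in HFD livers (-0.71, limma p = 0.0038, exact permutation p = 0.029), with every HFD+WBM liver below every HFD liver. Il10, a cytokine that lowers class II at the cell surface, differed by -0.67, Cd83, which keeps class II and Cd86 at the surface, by -0.70, and Ap1m1, a clathrin adaptor subunit, by -0.35. Il10 and Cd83 are thus known to act in opposite directions on surface class II, and both RNAs were lower. The groups overlapped for Il10 (exact permutation p = 0.057) and for Cd83 (p = 0.11). The mean of Il10 lay at the 12.8 percentile of all genes, so that background may make up part of its value.

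Costimulatory genes gave 0 of 10 lower and 0 higher at an unadjusted p under 0.05 with limma (and 0 after adjustment), with Cd80 at -0.58 (exact permutation p = 0.26) and Cd40 at 0.26 (p = 0.20). In class I presentation, which shows peptides from inside the cell to CD8+ T cells, 1 of 13 genes was lower, against 6.9% of all genes. It was the immunoproteasome subunit Psmb9 (-0.46, limma p = 0.040, exact permutation p = 0.057), and the list's median was -0.21. Interferon gamma is the classical inducer of Ciita and of both MHC classes. Of its signalling genes and targets, 0 of 15 were lower and 0 higher at an unadjusted p under 0.05 with limma, with a median of -0.12, Cxcl9 at -0.70 (exact permutation p = 0.14) and Ifng itself at 0.07. Of the 15 differences, 12 were below 0. The mean of Ifng lay at the 11.9 percentile of all genes, so that background may make up part of its value.

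**Figure D4:**
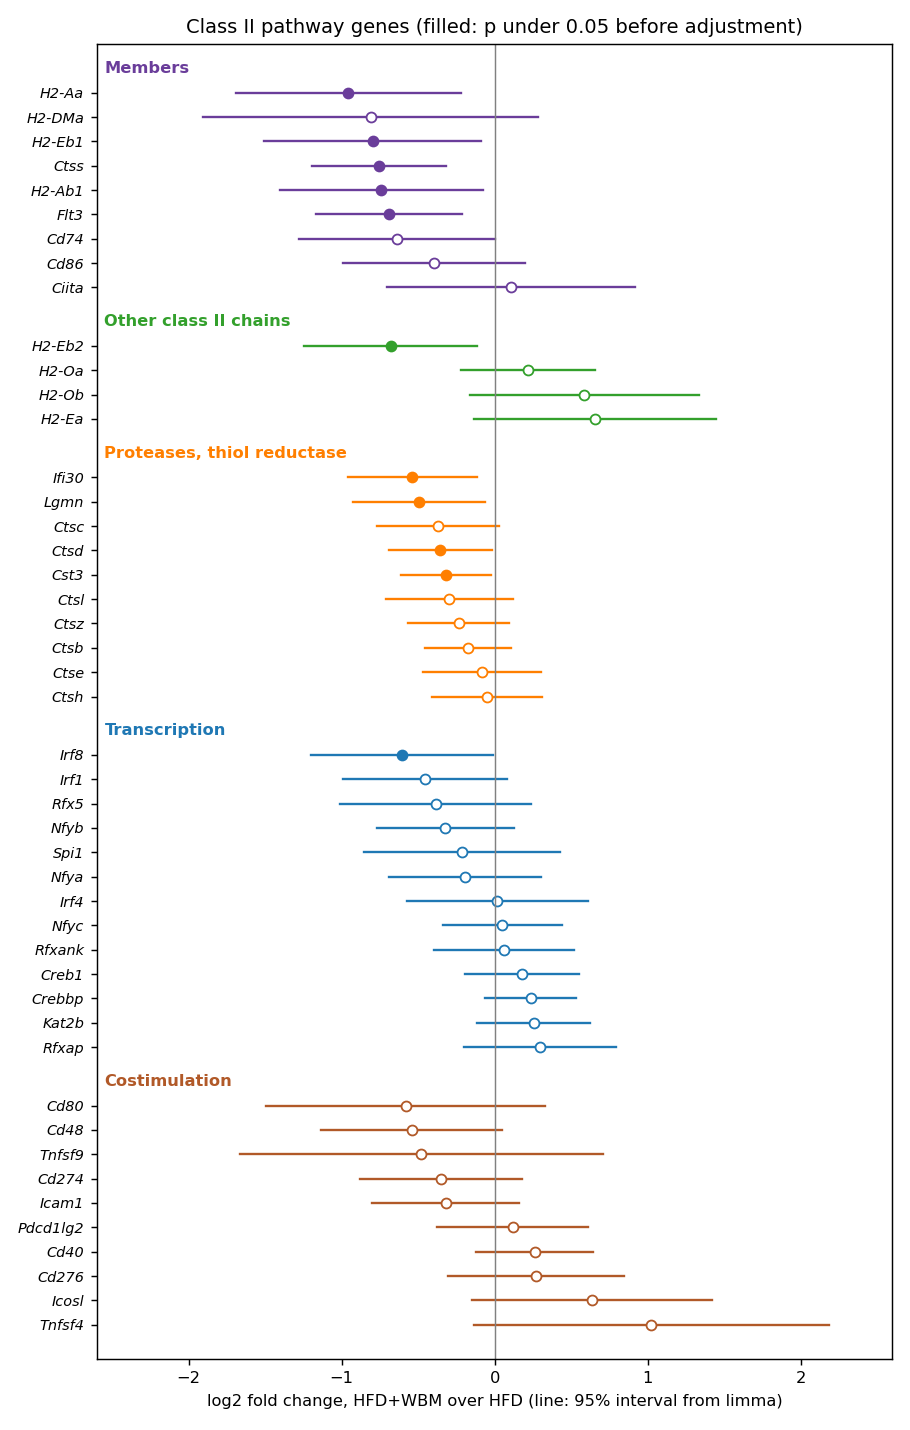
Log2 fold change of HFD+WBM over HFD (x axis) of single genes (rows), with the limma estimate as a point, filled where the unadjusted p was under 0.05, and its 95% interval as a line, in blocks by role in the pathway. Estimates for 8 of the 9 members and for all 10 proteases and related genes lie left of 0, and those of the 13 transcription genes lie on both sides.

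In a list around FLT3 that also held other growth factor receptors and their ligands, 4 of 13 genes were lower and 0 higher, with a median of -0.39. Csf2rb, the shared beta subunit of the receptors for GM-CSF, IL-3 and IL-5, read 6.26, 5.84, 5.30 and 5.91 in HFD+WBM livers, against 6.91, 6.63, 6.81 and 6.91 in HFD livers. The groups did not overlap and the log2 fold change was -0.99 (limma p = 0.00086, exact permutation p = 0.029). Csf2rb has a closely similar neighbour, Csf2rb2, so that array probes may read both. Csf1r, the receptor that macrophages need, differed by -0.61, and it is also counted among the macrophage markers below. Kitl, the ligand of KIT, differed by -0.51 and Stat5a by -0.40. The FLT3 ligand Flt3l differed by -0.54 without passing (exact permutation p = 0.14).

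Markers of the cells that carry class II in the liver did not all move with it. Of 18 markers of dendritic cells, 0 were lower and 0 higher at an unadjusted p under 0.05 with limma, although Flt3 was lower, and their median log2 fold change was -0.16. Of the 18 differences, 13 were below 0. Ly75, the marker of smallest p, differed by -0.61 (exact permutation p = 0.26), with its mean at the 28.5 percentile of all genes. Zbtb46, a transcription factor of conventional dendritic cells, differed by -0.08, Xcr1 by 0.28, Clec9a by -0.46 (exact permutation p = 0.23), and Siglech of plasmacytoid dendritic cells by -0.15. Of 13 markers of B cells, 0 were lower and 1 higher (Pax5, 0.63, limma p = 0.039, exact permutation p = 0.17), against 6.9% and 4.85% of all genes, with a median of 0.27. Of the 13, 4 differences were below 0, and among those that did not pass, Blnk differed by -1.05, Cd79a by 0.67 and Blk by 0.44. The means of Zbtb46, Xcr1, Clec9a and Siglech lay at the 43.8, 22.9, 40.6 and 12.4 percentile of all genes. Those of Pax5, Blnk, Cd79a and Blk lay at the 22.0, 12.2, 17.8 and 30.7 percentile. Background may make up part of the dimmer values, so the lack of a call does not show that these cells were unchanged.

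Markers of Kupffer cells and macrophages were lower together. Of 18 measured, 13 were lower and 0 higher, with a median of -0.67. C1qc, a complement component made by tissue macrophages, read 9.40, 9.80, 9.23 and 9.73 in HFD+WBM livers, against 10.44, 10.02, 10.57 and 10.33 in HFD livers (-0.80), and Cd68, a lysosomal protein of macrophages, read 8.43, 8.87, 8.35 and 8.99 in HFD+WBM livers, against 9.24, 9.24, 9.51 and 9.64 in HFD livers (-0.75). Lyz2, the gene of lysozyme, differed by -0.76 and C1qa by -0.67. The groups were apart for C1qc, Cd68 and Lyz2 and overlapped for C1qa, and they were apart for 5 of the 18 markers, against 5.02% of all genes. Of genes common to leukocytes, 7 of 10 were lower and 0 higher (median -0.57), and of 8 hepatocyte markers 0 were lower and 0 higher at an unadjusted p under 0.05 (median 0.09). Hepatocyte markers marked the tissue as labelled, with Alb, the gene of serum albumin, at 14.16 in HFD+WBM livers and 14.04 in HFD livers. Without HFD replicate 3, 12 of the 18 macrophage markers were lower.

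**Figure D5:**
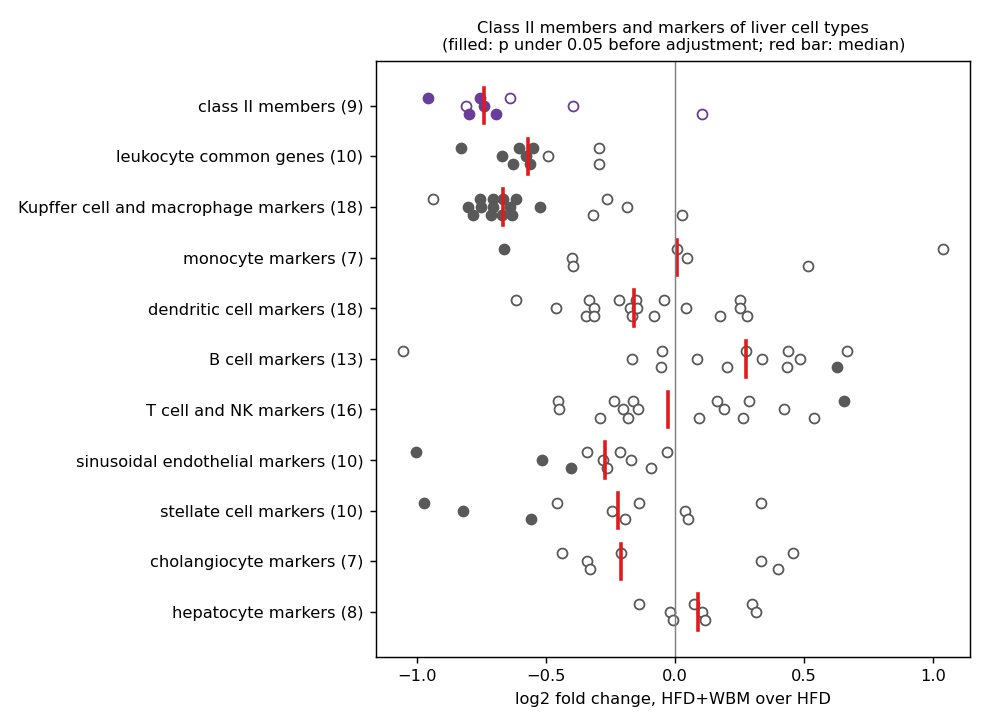
Log2 fold change of HFD+WBM over HFD (x axis) of single genes (points, filled where the unadjusted limma p was under 0.05), in rows for the class II members and for marker lists of liver cell types, with the number measured in brackets and the median as a red bar. Of the members (median -0.74) 8 of 9, and of the Kupffer cell and macrophage markers (median -0.67) 17 of 18, lie left of 0, and the dendritic cell markers (-0.16) and B cell markers (0.27) lie around it.

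Set side by side over the mice, the macrophage markers and the class II chains were not in the same order. The mean deviation of the 18 macrophage markers was -0.54, 0.00, -0.50 and -0.13 in HFD+WBM replicates 1 to 4, against 0.49, -0.05, 0.50 and 0.25 in HFD replicates 1 to 4. HFD+WBM replicate 1 was thus among the lowest for macrophage markers and Ctss, but above the mean of the 8 mice for the chains and Cd74. The mean deviation of the B cell markers was highest in that same mouse, at 0.61, 0.18, -0.46 and 0.01 in HFD+WBM livers, against 0.06, -0.37, -0.01 and -0.03 in HFD livers. That of the dendritic cell markers was 0.11, 0.04, -0.45 and 0.04 in HFD+WBM livers, against 0.02, 0.02, -0.03 and 0.24 in HFD livers, so that HFD+WBM replicate 3 was lowest for the chains, the B cell and the dendritic cell markers alike. When the macrophage deviation was taken from that of the chains and Cd74 in each mouse, 0.67, -0.05, -0.65 and -0.36 remained in HFD+WBM livers, against 0.06, -0.11, -0.13 and 0.56 in HFD livers. The groups overlapped after the subtraction and had overlapped before it, so the overlap decides nothing about the macrophage part. The part of each cell type in the class II difference was not tested.

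The 5 genes outside the list whose log2 values over the 8 mice were most like the mean of the chains and Cd74 were Cars, Nacad, Slc41a2, Eaf1 and Tubb6, with Pearson r of 0.984, 0.973, 0.965, 0.958 and 0.957. They were picked on these same 8 mice as the highest of all genes outside the members, and are given as a description. Without HFD+WBM replicate 3 and HFD replicate 4, the 2 mice farthest from the median, Cars kept r = 0.981, and after removal of the diet means r = 0.979. Cars encodes the cysteinyl-tRNA synthetase, and its own log2 fold change was -0.27.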

How the data were processed

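Per the labels and the methods, the authors background-corrected and normalized the probe intensities of Affymetrix Mouse Gene 1.0 ST arrays, then condensed them to probe sets by IterPLIER (Affymetrix Power Tools 1.8.6 in the submitters' processing notes). The log2 values of 28944 probe sets were deposited. No source used here gives the between-array method or an offset before the log, which would shrink folds of dim genes, and neither scanner files nor detection calls entered the work. The number of arrays limits the precision.

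Probe sets naming a single gene were kept (21789), the brightest per gene, which left 19938 genes. Diet was the sole term of a limma fit (version 3.58.1, R 4.3.3, lmFit then eBayes), adjusted by Benjamini-Hochberg over all genes. Counts of lower and higher genes use an unadjusted limma p under 0.05. Labels name 1 liver per array, and p-values measure the spread between these mice. Alternatives were median centring, quantile normalization, array weights, a prior that follows the level, offsets before the log, a filter on dim genes, the mean of all probe sets, an equal-variance t-test per gene, a replicate block and leaving out each mouse. Promoter windows came from RefSeq (GRCm38.p6). The members and lists were chosen with earlier results of these data known. Named genes were all members, up to 4 genes of smallest p per list, Rfx5, Irf1, Ifng, Flt3l, Ctsl, Cd80 and Cd40 for their roles, and the 5 most alike genes. The remaining names (among them Zbtb46, Xcr1, Clec9a, Siglech, H2-Ea and Alb) were chosen after their values were seen.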

Additional observations from a re-analysis of the deposited data

Results flagged for a closer look

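Each of the 9 measured members was looked at in both diets for a mouse far from the other 3, which made 18 groups of 4 mice, and chance marks about 1 in 20 such groups. In H2-DMa, HFD+WBM replicate 3 lay at 4.00 with its nearest neighbour at 6.07, a gap of 0.885 of the group's range. In Ciita, HFD replicate 3 lay at 5.84 with its nearest neighbour at 7.24, a gap of 0.860 of the range. HFD+WBM replicate 3 was also the lowest mouse for H2-Aa, H2-Ab1, H2-Eb1 and Cd74, and HFD replicate 3 was the array that differed most from the rest.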

How the results depend on the processing

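The count of members lower at an unadjusted p under 0.05 was 5, and it was 3 with an equal-variance t-test per gene, 6 when arrays were centred on their medians or 16 was added before the log, and 7 when 64 was added or the prior variance followed the level. Of all 19938 genes, 1375 were lower in the main fit and 1528 with the t-test. The count over all genes was 1268 with centring, 1431 with 16 added, 1700 with 64 added and 1642 with that prior. When each mouse was left out the count of lower members ranged between 3 and 6: it was 3 without HFD+WBM replicate 3, HFD+WBM replicate 4, HFD replicate 1 or HFD replicate 4, where H2-Aa, Flt3 and Ctss remained and H2-Ab1 and H2-Eb1 no longer passed. The count of lower genes over all 19938 then ranged between 904 (without HFD+WBM replicate 3) and 1366 (without HFD replicate 1). At the 2-fold threshold, leaving out single mice gave 0 to 1 members (H2-Aa without HFD+WBM replicate 1, HFD+WBM replicate 2 or HFD replicate 2). At an adjusted p under 0.05 the count was 1 with an offset of 64 before the log (Ctss, adjusted p = 0.034) and 2 with a prior variance that follows the level (H2-Aa, adjusted p = 0.034, and Ctss, adjusted p = 0.011), by limma, settings under which 80 and 139 of all 19938 genes passed. Over all settings the adjusted p ranged between 0.034 and 0.57 for H2-Aa and between 0.011 and 0.57 for Ctss. The alternatives for adjusted p were added after seeing the data. The members' median log2 fold change lay between -0.88 and -0.50 when single mice were left out, with -0.50 found without HFD+WBM replicate 3. The direction of Ciita (0.11) turned with array weights (-0.11) and, over the mice left out, ranged between -0.27, with HFD replicate 3 dropped, and 0.27, with HFD replicate 2 dropped. Cd74 gained p under 0.05 in 7 settings, and Flt3 was at -0.32 with the offset of 64. The cause of these shifts was not tested. Of 158 results of single members under other settings, 136 kept their direction and side of the threshold, 10 lost p under 0.05, 9 gained it and 3 reversed. Mice of the same replicate number did not deviate together across genes (correlations -0.036, -0.049, -0.117 and -0.017), so no pairing by number was seen. A pairing that touches few genes could be missed in this way. With a replicate block 5 members were lower, the same genes. Dim members (Flt3, H2-DMa) have no background limit here.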

Other observations

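In genes of other liver cells, 3 of 10 sinusoidal endothelial markers (median -0.27 on the log2 scale) and 3 of 10 stellate cell markers (median -0.22) were lower in HFD+WBM livers than in HFD livers at an unadjusted p under 0.05 (limma), and 0 were higher. Of 7 monocyte markers, 1 was lower (Ccr2, the receptor for the chemokine CCL2, -0.66, exact permutation p = 0.057) and 0 were higher. Of 16 markers of T cells and NK cells, 0 were lower and 1 was higher (Ctla4, an inhibitory receptor of T cells, 0.65, exact permutation p = 0.086). At the same threshold 6.9% of all genes were lower and 4.85% higher. The means of Ccr2 and Ctla4 lay at the 20.8 and 12.9 percentile of all genes, so that background may make up part of their values. Of 7 cholangiocyte markers, 0 were lower and 0 higher at an unadjusted p under 0.05 (median -0.21).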
